A study of Mus musculus with 18 samples.

Results

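DNA methylation of wild-type splenic CD4+ cells was compared with that of wild-type splenic CD11b+ cells, region by region. The study measured whole-genome bisulfite sequencing (WGBS) in both cell types from *Dnmt3a*+/+ (WT) and *Dnmt3a* R878H/+ mice, and its deposited tables list genomic regions with a mean methylation per genotype, one table per cell type. A region of the CD4+ table and one of the CD11b+ table were paired when they overlapped by at least 50% of both lengths on an autosome. This gave 135762 paired regions out of 965237 listed in all, which is 24.8% of the 547975 autosomal regions of CD4+ cells and 33.3% of the 407396 of CD11b+ cells. The values compared are the WT means, each over 4 mice. All differences are given as CD4+ minus CD11b+ in percentage points, so that a negative value is lower methylation in CD4+ cells.

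CD11b (integrin alpha M, encoded by *Itgam*) marks neutrophils, monocytes and macrophages, and some natural killer, dendritic and B cells carry it too. CD4 marks helper and regulatory T cells. The cells were enriched on magnetic columns, first with an antibody to CD11b and then, from what did not bind, with one to CD4, so that neither population is a single cell type. The mice were on a C57BL/6 background, and the study states that sex- and age-matched young adults were used. *Dnmt3a* encodes a DNA methyltransferase, and the R878H allele was turned on in blood cells by *Vav1-iCre*. In the transplantation experiments the name WT covered mice with Cre and no floxed allele, and mice with the floxed allele and no Cre. Which of these gave the WGBS samples is not stated in the sources used here. The labels hold 4 replicate numbers for each cell type and genotype. CD11b+ cells of R878H/+ mice have 6 entries, since replicates 3 and 4 are entered repeatedly.

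In mammals most CpG dinucleotides are methylated in most tissues. Methylation is lost at promoters and enhancers that a lineage uses, typically where transcription factors bind, and kept there in lineages that do not use them. A mean between the extremes is a share of DNA molecules, and it does not tell cells that differ from alleles that differ. The tables give no value per mouse and no read depth. No spread between mice, interval or test could therefore be attached to a difference, and a change is described by its size. A region was called lower in a cell type when its mean was more than 20 percentage points below that of the other. The R878H/+ means, from other mice, are given beside the WT means as the one other measurement of the same lineage difference.

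The sequences below are the mm10 plus strand of 6 regions with large differences at T-cell and myeloid genes, 3 in each direction, cut to the central 300 bases where longer. They are shown because they come from regions with large differences between the lineages, and complete CpG dinucleotides are in capitals. The first set was less methylated in WT CD4+ cells. It lies in an intron of *Bcl11b*, beside a transcription start of *Gata3* and beside one of *Zap70*.
Bcl11b, chr12:107918688-107918846: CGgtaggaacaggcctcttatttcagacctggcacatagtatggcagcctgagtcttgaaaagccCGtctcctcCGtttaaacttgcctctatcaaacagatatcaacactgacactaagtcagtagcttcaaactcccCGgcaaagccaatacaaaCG
Gata3, chr2:9875820-9876119: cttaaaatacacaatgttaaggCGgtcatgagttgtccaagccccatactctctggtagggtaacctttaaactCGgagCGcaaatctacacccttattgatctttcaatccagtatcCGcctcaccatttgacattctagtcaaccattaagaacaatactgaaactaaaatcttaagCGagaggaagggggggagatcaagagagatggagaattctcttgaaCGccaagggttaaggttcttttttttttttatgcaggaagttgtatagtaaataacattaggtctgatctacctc
Zap70, chr1:36767604-36767879: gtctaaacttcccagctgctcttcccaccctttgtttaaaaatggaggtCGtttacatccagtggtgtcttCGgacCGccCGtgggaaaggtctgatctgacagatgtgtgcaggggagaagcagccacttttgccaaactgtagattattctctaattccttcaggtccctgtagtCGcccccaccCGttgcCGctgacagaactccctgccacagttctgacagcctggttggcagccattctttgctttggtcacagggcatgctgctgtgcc
The second set was less methylated in WT CD11b+ cells. It lies by the promoter of *Cx3cr1*, in an intron of *Cxcr2* and by the promoter of *Ctsg*.
Cx3cr1, chr9:120069256-120069555: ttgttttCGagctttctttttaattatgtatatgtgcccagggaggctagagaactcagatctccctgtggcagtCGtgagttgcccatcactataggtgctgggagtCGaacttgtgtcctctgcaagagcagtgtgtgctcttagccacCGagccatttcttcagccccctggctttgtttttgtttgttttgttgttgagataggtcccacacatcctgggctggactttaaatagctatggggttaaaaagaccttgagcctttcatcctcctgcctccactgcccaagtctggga
Cxcr2, chr1:74156492-74156746: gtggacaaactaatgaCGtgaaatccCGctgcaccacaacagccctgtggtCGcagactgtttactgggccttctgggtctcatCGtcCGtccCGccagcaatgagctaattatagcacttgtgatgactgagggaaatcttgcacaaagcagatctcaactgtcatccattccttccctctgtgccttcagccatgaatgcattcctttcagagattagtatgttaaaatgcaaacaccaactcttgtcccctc
Ctsg, chr14:56102090-56102389: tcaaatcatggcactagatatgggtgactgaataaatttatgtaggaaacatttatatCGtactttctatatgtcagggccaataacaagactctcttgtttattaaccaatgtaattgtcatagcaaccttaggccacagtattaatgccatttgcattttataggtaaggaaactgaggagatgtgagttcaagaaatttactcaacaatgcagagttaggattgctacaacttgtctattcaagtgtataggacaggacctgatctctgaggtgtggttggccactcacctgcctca
The *Bcl11b* region holds 5 complete CpGs in 159 bases, the *Cxcr2* region 6 in 255 bases and the *Ctsg* window 1 in 300 bases, most cytosines measured at *Ctsg* lying outside the central window. Across all paired regions the median was 1.34 CpGs per 100 bases, against 1.44 in those lower in CD4+ cells and 1.58 in those lower in CD11b+ cells.

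The methylation of the 2 lineages was alike over most of the paired regions, and slightly higher in CD4+ cells. The median WT level was 87.7% in CD4+ cells and 86.0% in CD11b+ cells. The difference had a median of 1.23 points, with the middle of its distribution, from the lower to the upper quartile, between -1.39 and 5.05. CD4+ cells were the higher of the pair in 62.5% of regions, and 82.1% of regions differed by at most 10 points. The correlation between the WT levels was 0.889 (Pearson) and 0.863 (Spearman) over 135762 regions. These describe regions of shared sequence and neighbouring position, which are not independent.

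**Figure D1:**
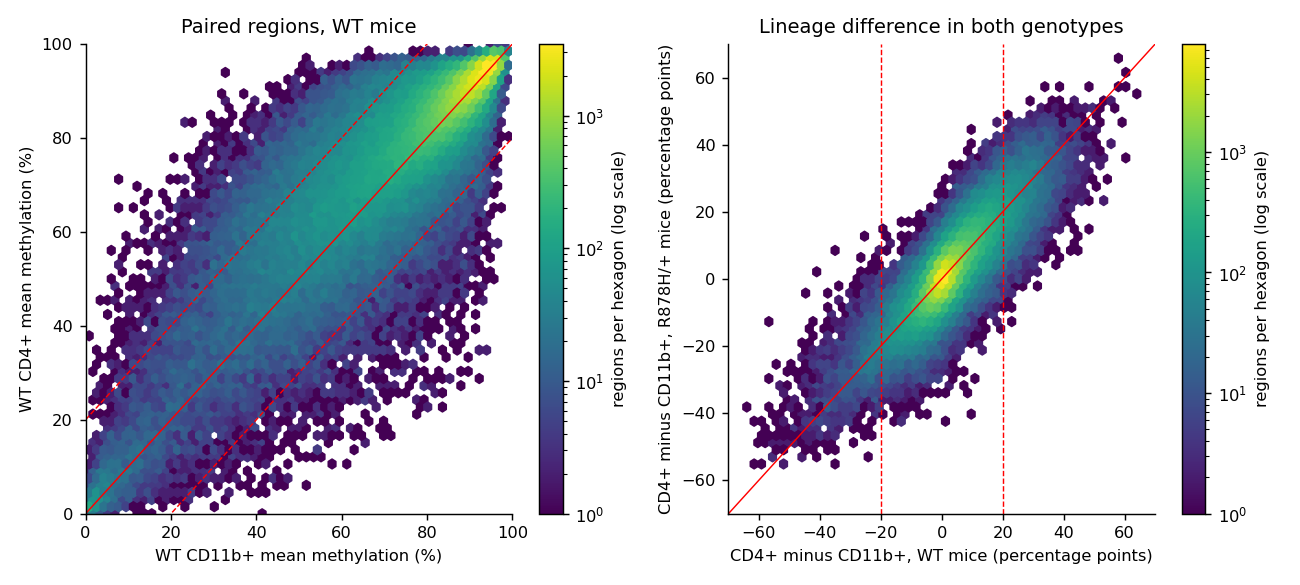
Left, WT mean methylation of CD4+ cells (y axis, %) against CD11b+ cells (x axis, %) for 135762 paired regions; right, the difference CD4+ minus CD11b+ in R878H/+ mice (y axis, percentage points) against that in WT mice (x axis). Colour gives regions per hexagon on a log scale, solid lines mark equality and dashed lines a difference of 20 points; most regions sit in the upper right corner of the left panel, and differences lie along the diagonal of the right one.

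Large differences were mostly lower levels in the myeloid fraction. No progenitor was compared, so a loss in one fraction cannot be told from a gain in the other. Of all paired regions, 5727 (4.22%) were lower in CD11b+ cells by more than 20 points and 1724 (1.27%) were lower in CD4+ cells, a ratio of 3.32. Both directions together made up 5.49%. No region was above 80% in one cell type and below 20% in the other. The usual contrast was between high and intermediate: 11931 regions (8.79%) were above 80% in CD4+ cells and between 20% and 80% in CD11b+ cells, against 4934 (3.63%) in the opposite state.

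The excess of regions lower in CD11b+ cells depended on how well the boundaries matched. Among pairs that overlapped by at least 80%, 3.45% were lower on the CD11b+ side and 0.655% on the CD4+ side. Where both tables gave the same start and end, the shares were 3.47% (325 of 9353 regions) and 0.406% (38 regions), a ratio of 8.55. Pairs at 50% to 55% overlap were called in 7.91% of cases, against 4.11% at 80% or more. Loosely matched pairs average partly different CpGs, and the calls lower in CD4+ cells were the ones more often found among them.

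The same lineage difference was present in the mutant mice. Of the 1724 regions lower in WT CD4+ cells, 1706 (99.0%) had the same sign in R878H/+ mice, and of the 5727 lower in WT CD11b+ cells, 5703 (99.6%) did, against 75.1% of all paired regions. Past 20 points in R878H/+ mice as well were 1188 (68.9%) of the former and 3881 (67.8%) of the latter. The median difference of the first group was -25.7 points in WT and -24.7 points in R878H/+ mice. In the second it was 25.3 and 24.3 points. These differences sat on lower levels in the mutant: regions lower in CD11b+ cells had medians of 76.8% in CD4+ and 49.5% in CD11b+ cells of WT mice, and of 55.4% and 29.7% in R878H/+ mice. Regions lower in CD4+ cells had 45.0% and 74.5% in WT mice, and 34.3% and 61.7% in R878H/+ mice. Over the 135762 paired regions, the WT difference correlated with the R878H/+ difference at 0.830 (Pearson) and 0.742 (Spearman). The mice are different but the region boundaries are shared by the genotypes, so a mismatch of boundaries recurs in both. With identical boundaries the shares of the same sign were 37 of 38 and 324 of 325.

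A smaller group moved the other way between genotypes. The R878H/+ mean of CD4+ cells was above the WT mean in 264 of the 1724 regions lower in WT CD4+ cells (15.3%), against 2.38% of all paired regions. Among regions lower in WT CD11b+ cells, the R878H/+ mean of CD11b+ cells exceeded the WT mean in 1.57%, against 3.42% of all. The regions were grouped by their WT means, and the part of this choice in the shares was not tested.

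Differences were more common close to transcription starts. Promoter regions, within 1000 bases of a transcription start of a protein-coding gene, were the least methylated class, with medians of 77.3% in CD4+ and 73.5% in CD11b+ cells over 12091 regions. There 6.74% of regions were called lower in CD11b+ cells, and 2.61% in CD4+ cells. Such shares were 3.94% and 1.06% in exons, 4.46% and 1.34% in introns, and 3.55% and 0.981% between genes. Beyond 100 kb from any start they fell to 2.07% and 0.594%. The median difference was positive in every class, at 1.79 points in promoters, 1.22 in exons, 1.28 in introns and 1.11 between genes.

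**Figure D2:**
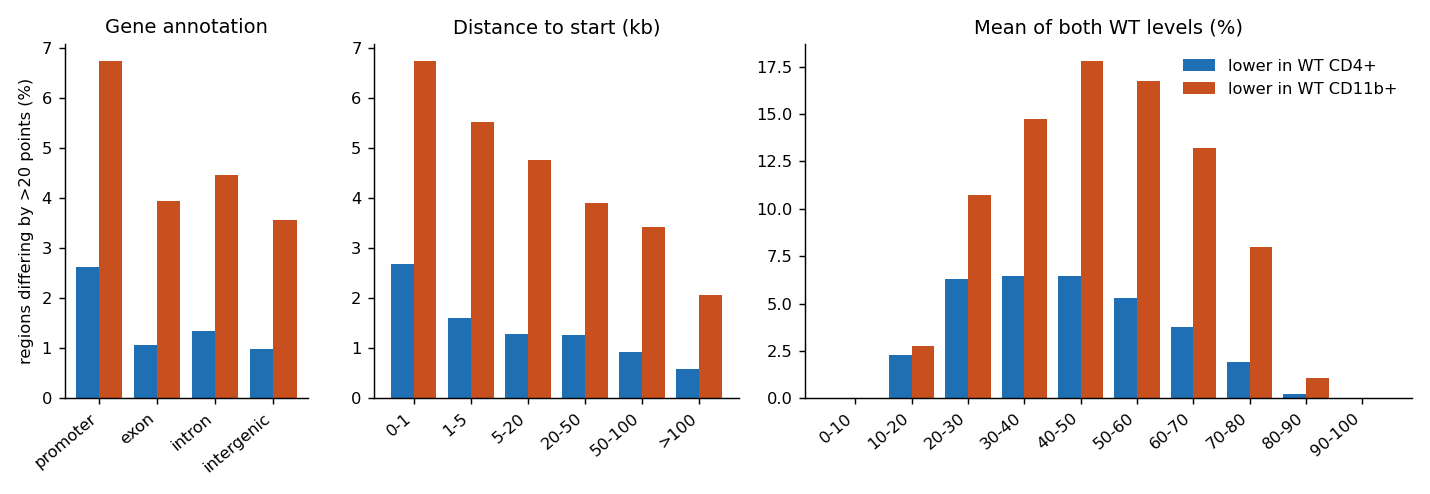
Share of paired regions (y axes, %) lower in WT CD4+ cells (blue) or in WT CD11b+ cells (orange) by more than 20 points, by gene annotation, by distance to the nearest transcription start (kb) and by the mean of both WT levels (%). Bars are single shares over regions with no error. The shares are highest in promoters and at intermediate levels, reaching 6.48% for CD4+ and 17.8% for CD11b+ cells. Regions with a mean of both levels below 10% or above 90% cannot be called.

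Calls were most frequent at intermediate methylation, which the definition of a call favours. A difference of more than 20 points is impossible where the mean of both levels is below 10% or above 90%. The part of this limit in the shares was not tested. Among regions whose WT levels averaged 40% to 50%, 17.8% were lower in CD11b+ and 6.45% in CD4+ cells, whereas no region averaging above 90% could be called. Regions lower in CD11b+ cells lay a median of 11403 bases from the nearest start and those lower in CD4+ cells 10321 bases, compared with 19645 bases for all. Only 5.08% of the former and 9.86% of the latter fell below 20% in the cell type with the lower level.

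Among paired regions the shift was spread over the genome. Autosomal regions without a partner were not compared, and had WT medians of 90.5% (412213 of CD4+ cells) and 90.1% (271634 of CD11b+ cells). Every autosome had a positive median, and 93.4% of 1835 bins of 1000000 bases with at least 20 paired regions did. The highest bin median, 5.30 points over 103 regions, was at chr4:59000001-60000000, which holds *Ugcg* and *Susd1*. The next was chr6:134000001-135000000 with 4.98 points and 19 of 153 regions lower in CD11b+ cells, around *Etv6*, which encodes a transcriptional repressor of the ETS family. The third was chr4:122000001-123000000, around *Mycl*, at 4.60 points. The lowest bins were chr7:73000001-74000000 with *Chd2* at -1.67, chr14:29000001-30000000 at -1.60 and chr4:5000001-6000000 at -1.47 points.

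Calls were clustered only in part. Joined over gaps of up to 5000 bases, the regions lower in CD11b+ cells formed 5300 clusters, of which 4911 were single regions and 34 held at least 3. A neighbour within 5000 bases of such a region was itself lower in CD11b+ cells in 10.9% of cases, against 5.11% around any region. For CD4+ cells the shares were 5.19% and 1.46%. The cluster with most members, 5 regions at chr15:96735719-96747157 near *Slc38a2*, an amino acid transporter, had medians of 91.3% in CD4+ and 64.0% in CD11b+ cells. Another of 4 regions lay near *Lmo2* (chr2:103966968-103976193), a partner of blood stem cell transcription factors, with 68.7% and 41.5%. The 6 clusters of 3 regions lower in CD4+ cells lay near *Rhoh*, *Il9r*, *Cd5*, *Bcl11b*, *Leprotl1* and, in a single cluster, *Il21* and *Cetn4*.

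Among 16137 protein-coding genes with a paired region in the gene or within 5000 bases of it, 7.68% had one lower in CD4+ cells and 20.1% one lower in CD11b+ cells. Genes of T-cell receptor signalling stood on the CD4+ side. Of 28 such genes with a paired region, 15 had a region lower in CD4+ cells and 5 one lower in CD11b+ cells. By regions, 31 of 265 (11.7%) were lower in CD4+ cells, against 1.27% of all, and 6 (2.26%) in CD11b+ cells, against 4.22% of all. The median difference of the list was 0.957 points, close to the 1.23 of all regions, so the large differences sat in a minority of its regions. Genes with many regions weigh more in these shares.

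*Cd247*, which encodes the zeta chain of the T-cell receptor complex, had 20 paired regions. The WT level was lower in CD4+ cells in 15 of them, by more than 20 points in 7, and in none was it lower in CD11b+ cells by that much. An intronic region 5136 bases into the gene (chr1:165793595-165794040) had a mean of 45.4% in CD4+ and 90.6% in CD11b+ cells. A second intronic region (chr1:165796949-165797098), whose boundaries matched by 98.7%, had 57.1% and 95.4%. The next intronic regions had smaller gaps, at 78.7% against 92.9% (chr1:165798718-165798962), 67.9% against 91.7% and 82.3% against 93.6%. In these regions of *Cd247* CD11b+ cells were thus near full methylation, and CD4+ cells were lower by varying amounts. A short region at chr1:165841110-165841208 was low in both, at 12.4% and 9.04%.

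*Cd5*, an inhibitory receptor on T cells, had 4 paired regions and all were lower in CD4+ cells. Their WT levels ran from 62.1% to 70.3% in CD4+ cells and from 87.2% to 93.1% in CD11b+ cells, without overlap. *Zap70*, the kinase recruited to the zeta chain, had 18.02% in CD4+ and 47.6% in CD11b+ cells at chr1:36767604-36767879, the region printed above. *Rasgrp1*, an activator of Ras below the receptor, had an intronic region with 53.4% and 81.0%, and its 6 regions held 1 lower in CD4+ and 2 lower in CD11b+ cells, with differences from -27.7 to 27.5 points. *Skap1*, an adaptor, had 1 of 62 regions in each direction, from -38.9 to 22.1 points, the latter in an intron at 72.6% and 50.5%.

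The co-receptor *Cd4* itself had 4 paired regions. Of these 1, in the intron at chr6:124883631-124883872, was lower in CD4+ cells, with 58.9% against 90.5%. Its boundaries matched by 51.7%. The other 3 differed by 1.85 to 3.19 points. *Cd3e*, another chain of the receptor complex, had a single region, an exon at chr9:45005408-45005544, which was high in both at 95.1% and 94.1%. *Lck* and *Tcf7*, with 4 and 3 regions, had none past 20 points, and no pair lay at *Cd3d*.

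T-cell transcription factors had called regions in both directions. Of 25 genes, 14 had a region lower in CD4+ cells, 9 one lower in CD11b+ cells and 5 had both. Among all protein-coding genes with a paired region, 7.68% had one lower in CD4+ and 20.1% one lower in CD11b+ cells. By regions the list had 5.35% lower in CD4+ cells, against 1.27% of all, and 6.64% lower in CD11b+ cells, against 4.22% of all. Its median was 1.18 points. The list's largest difference towards lower CD4+ levels was -62.9 points at *Satb1*, in 1 of its 4 regions. Among pairs with more than 10 cytosines in both tables it was at *Bcl11b*, the factor that commits progenitors to the T lineage. Among its 12 paired regions 5 were lower in CD4+ cells and none in CD11b+ cells.

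The *Bcl11b* regions lower in CD4+ cells lay at both ends of the gene. The intronic region 3869 bases from the start (chr12:107999632-107999834) had 23.4% in CD4+ and 77.4% in CD11b+ cells. Towards the other end, chr12:107918688-107918846 had 39.0% against 91.9%, and chr12:107921702-107921863 had 21.0% against 77.5%. In between, a region at chr12:107976175-107976393 was at 8.40% and 3.33%, low in both. In R878H/+ mice this region was at 3.00% in CD4+ and 30.6% in CD11b+ cells. In the 3 regions named with large differences R878H/+ CD4+ cells were higher than WT, at 36.7%, 50.7% and 37.4%, and below the 76.1%, 83.4% and 83.8% of R878H/+ CD11b+ cells. Boundaries of the 12 pairs matched by between 50.3% and 79.2%, so none entered the stricter set.

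**Figure D3:**
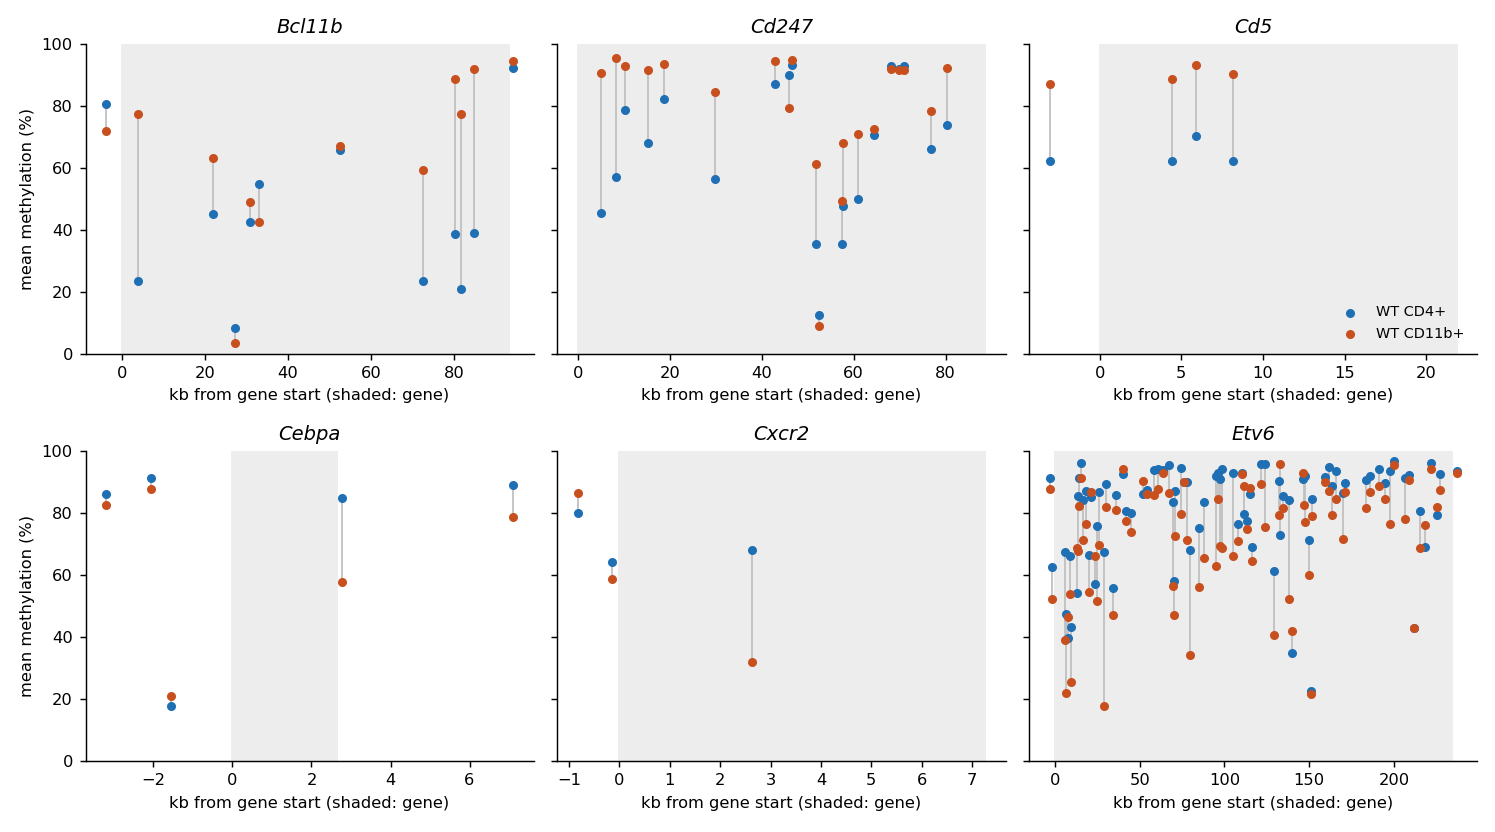
WT mean methylation (y axis, %) of each paired region against its distance from the gene start in transcription direction (x axis, kb) for 3 T-cell and 3 myeloid or blood genes. Blue points are CD4+ cells, orange points CD11b+ cells, grey lines join the pair and shading marks the gene; at *Cd5* all 4 blue points lie below the orange ones, and at *Etv6* most lie above.

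*Gata3*, the factor of T helper type 2 cells, had 29.2% in CD4+ and 67.0% in CD11b+ cells beside an internal start (chr2:9875727-9876211). In R878H/+ mice the same region was at 17.3% and 24.9%, a gap much smaller than in WT. The boundaries of this pair matched by 60.8%. Among the 9 regions of *Gata3*, 1 was lower in CD4+ and 1 in CD11b+ cells, with differences from -37.8 to 23.5 points. *Ets1* had an intronic region with 50.7% and 77.4%. Among pairs with more than 10 cytosines in both tables, other factors of the list had their largest differences on the CD11b+ side: *Bach2* with 51.9% against 17.7%, *Rora* with 57.3% against 26.0% and *Runx3* with 78.5% against 47.6%. Among all pairs *Bach2* had as many regions lower in CD4+ as in CD11b+ cells, 5 each of 62, with differences from -45.4 to 34.2 points. *Foxp1*, which keeps T cells quiescent and is expressed in monocytes too, had 15 of 97 lower in CD11b+ and 1 in CD4+ cells. In the list of T-cell surface receptors 7 of 93 regions (7.53%) were lower in CD4+ and 4 (4.30%) in CD11b+ cells. Over all paired regions the shares were 1.27% and 4.22%. The example of this list, *Slamf1*, had 60.9% against 84.5%.

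Genes of the myeloid lists stood on the CD11b+ side. Among myeloid surface receptors and signalling genes, 20 of 36 had a region lower in CD11b+ cells and 2 one lower in CD4+ cells. By regions the shares were 15.1% (27 of 179) and 1.12%, with a median of 3.81 points. Over all paired regions they were 4.22% and 1.27%. Among myeloid transcription factors, 14 of 25 genes and 11.2% of 187 regions were lower in CD11b+ cells, and 2 genes and 1.60% of regions in CD4+ cells. For granule and effector genes, 9 of 27 genes and 13.0% of 100 regions were lower in CD11b+ cells, with a median of 5.35 points. On the CD4+ side the list had 3 genes and 2.0% of regions, *Lyz1* and *Lyz2* sharing a region.

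**Figure D4:**
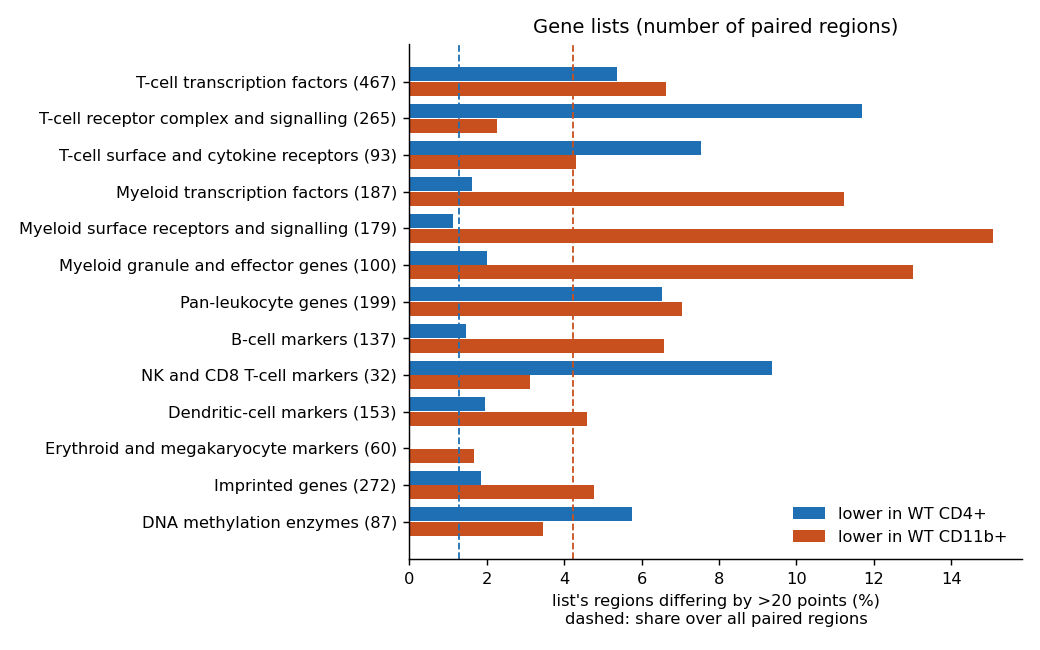
Share of each gene list's paired regions (x axis, %) lower in WT CD4+ cells (blue) or WT CD11b+ cells (orange) by more than 20 points, with the number of regions in parentheses. Dashed lines are the shares over all paired regions, 1.27% and 4.22%; the T-cell receptor list has the highest blue bar at 11.7% and the myeloid surface list the highest orange bar at 15.1%.

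The chemokine receptors of neutrophils and monocytes had some of the largest gaps. *Cxcr2*, which draws neutrophils out of the marrow, had 68.0% in CD4+ and 31.8% in CD11b+ cells in its intron at chr1:74156492-74156746, where the boundaries matched by 99.6%. In R878H/+ mice this region was at 32.5% and 9.12%. The other 2 regions of *Cxcr2* differed by -6.53 and 5.70 points. *Cx3cr1*, the fractalkine receptor of monocytes, had 89.6% and 53.2% by its promoter (chr9:120069160-120069651), where the boundaries matched by 50.2%. It was the only one of the 30 regions of *Cx3cr1* past 20 points, and their median was 2.60 points.

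Receptors for colony-stimulating factors followed. *Csf1r*, needed for macrophage survival, had an intronic region at 78.6% in CD4+ and 43.0% in CD11b+ cells. A region 2157 bases before *Csf2rb* (chr15:78322956-78324235) had 86.2% and 54.2%. *Csf3r*, the receptor for the factor that drives neutrophil production, had 84.1% and 59.0% near its start (chr4:126025452-126026066). The integrin gene *Itgax*, which encodes CD11c, had 60.9% and 33.4% at its promoter.

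*Itgam*, the gene of CD11b itself, did not follow this pattern. None of its 7 paired regions passed 20 points. The region nearest to that, 4348 bases before the gene (chr7:128058117-128058467), was lower in CD4+ cells, at 63.1% against 82.5%. An intronic region at chr7:128089317-128089689 was intermediate in both, at 40.1% and 31.3%. The median over the 7 regions was -1.66 points.

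Of the master factors of myeloid cells, *Spi1* (PU.1) was higher in CD4+ cells in all 9 regions, and past 20 points in 1 exonic region, with 72.2% against 45.9% (chr2:91113296-91113582). The boundaries of this pair matched by 50.3%, and in R878H/+ mice it was at 45.6% and 41.7%. The other 8 differed by 0.700 to 18.1 points. *Cebpa*, the factor of granulocyte commitment, had 84.8% and 57.6% over 1609 bases that overlap the 3′ end of its single exon (chr7:35121270-35122878), where 32 cytosines were counted in each table. A region 1551 bases before *Cebpa* was low in both lineages, at 17.8% and 21.0%. *Tfec*, a factor of macrophages, had 65.5% and 37.0% at its promoter (chr6:16897926-16898834), with boundaries matching by 99.9%.

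Among effector genes, *Ctsg*, which encodes cathepsin G of neutrophil granules, was higher in CD4+ cells in all 6 regions, by 7.55 to 35.4 points, and 3 were past 20. By its promoter (chr14:56102009-56102470) it had 67.2% against 31.8%. A region 2544 bases outside *Mpo*, myeloperoxidase, in an exon of *Lpo*, had 94.6% and 71.3%. Regions within *Mpo* itself differed by 1.29 and 9.63 points. *Alox5ap*, needed for leukotriene synthesis, had an intronic region with 56.7% and 32.3%. Against the list, a region 3822 bases before *Lyz2*, lysozyme (chr10:117285912-117286375), was lower in CD4+ cells at 54.3% against 74.8%. *Padi4* had 1 of 4 regions lower in CD4+ cells, with a difference of -36.65 points. Among pairs matched by at least 80%, 1 of the list's 32 regions (3.13%) was lower in CD11b+ cells, below the 3.45% of all such pairs, so the share of this list rests on loosely matched pairs. At this overlap the shares lower in CD11b+ cells were 12.9% for myeloid surface genes and 11.1% for myeloid factors. The shares lower in CD4+ cells were 9.59% for T-cell receptor genes (7 of 73 regions), 9.09% for genes shared by all leukocytes (6 of 66) and 2.68% for T-cell factors, against 0.655% of all such pairs.

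Genes shared by all leukocytes had regions of both kinds, 6.53% of 199 lower in CD4+ and 7.04% in CD11b+ cells. Over all paired regions the shares were 1.27% and 4.22%. *Fli1*, an ETS factor, had an intronic region at 45.8% in CD4+ and 83.4% in CD11b+ cells (chr9:32518604-32518929). Of its 24 regions, 3 were lower in CD4+ and 2 in CD11b+ cells, with differences from -54.2 to 32.9 points. *Runx1* had 2 of 52 in each direction, from -38.0 to 30.2 points, the latter in a region at 90.2% and 60.0%. *Selplg*, the selectin ligand, had an intronic region at 12.8% and 34.4%. Enzymes of DNA methylation had 5 of 87 regions (5.75%) lower in CD4+ and 3 (3.45%) in CD11b+ cells. *Tdg*, a demethylation glycosylase, had 1 of 4 in each direction, from -25.0 to 35.7 points, the latter in a region at 91.7% and 56.0%. *Tet3*, an oxidase of methylcytosine, had 3 of 16 lower in CD4+ and 1 in CD11b+ cells, from -53.4 to 25.1 points. One of those lower in CD4+ cells was at 30.6% and 57.7%. Imprinted genes, whose alleles differ by parent, had 1.84% and 4.78% of 272 regions in the respective directions, near the shares of all regions.

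Genes of other cells the fractions could hold were counted in the same way, to be read against the 1.27% of all regions lower in CD4+ and the 4.22% lower in CD11b+ cells. B-cell genes had 2 of 137 regions lower in CD4+ and 9 (6.57%) lower in CD11b+ cells, including *Ralgps2* at 68.9% and 31.5% and a region before *Cd79b* at 78.5% and 49.4%. NK and CD8 T-cell genes had 3 of 32 lower in CD4+ cells, among them *Eomes* at 23.0% and 46.3% and *Cd8a* at 72.0% and 94.4%, and 1 in CD11b+ cells. Dendritic-cell genes had 1.96% and 4.58% of 153 regions. Erythroid and megakaryocyte genes had 0 of 60 lower in CD4+ cells and 1 in CD11b+ cells. The part of other cells in the fractions was not tested.

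The labels were checked against the defining markers of both cell types. At 7 of 8 CD4 T-cell markers with a paired region, 13 of 45 regions were lower in CD4+ cells and 0 in CD11b+ cells. Of these 13, *Cd247* held 7, *Bcl11b* 5 and *Cd4* 1, and the other markers, *Cd3e*, *Cd3g*, *Lck* and *Tcf7*, held none. At 7 of 9 myeloid markers, 6 of 38 were lower in CD11b+ and 1 in CD4+ cells. At 4 B-cell markers 2 of 17 regions were lower in CD11b+ cells and 0 in CD4+ cells. Over all paired regions the shares were 1.27% lower in CD4+ and 4.22% in CD11b+ cells. *S100a8* and *S100a9* had no paired region.

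Genes were also ranked by their number of called regions, which favours genes with many pairs. Over all paired regions 1.27% were lower in CD4+ and 4.22% in CD11b+ cells. *Cd247* and *Bcl11b* led in CD4+ cells after *Gm20388*, a gene model spanning several megabases with 9 of 615 regions lower in CD4+ cells and 48 lower in CD11b+ cells. They were followed by *Pip4k2a*, a lipid kinase, with 5 of 24, and *Bach2*. *Rhoh*, an atypical GTPase needed for T-cell receptor signalling, had 4 of 13 and *Il9r*, a cytokine receptor, 3 of 5. In CD11b+ cells *Foxp1* was followed by *Etv6* with 13 of 86, and by *Asap1*, *Arid1b* and *Wwox* with 10 each, of 41, 78 and 145 regions. At *Etv6* CD4+ cells were lower in 14 of 86 regions, and differences ran from -23.1 to 49.8 points around a median of 8.04.

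The largest differences with well matched boundaries and more than 10 cytosines in both tables included loci outside the lists. On the CD4+ side an intergenic region at chr12:107140695-107141371 came first, with 28.7% against 82.9%. The gene with the nearest start is *3110018I06Rik*, 347599 bases away. An intron of *Dnajc11* followed with 44.2% and 88.9%, and one of *Iqgap2* with 48.2% and 90.9%. A region 20592 bases before *Thy1*, a surface protein of T cells, had 36.5% and 75.5% (chr9:44022604-44022980).

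Another of the 10 lay in the T-cell receptor alpha locus. The region chr14:54210999-54211415, 55 bases from the joining segment *Traj7*, had 48.8% in CD4+ and 86.8% in CD11b+ cells, with boundaries matching by 91.4%. Over the whole alpha and delta locus 3 of 21 paired regions were lower in CD4+ cells and 0 in CD11b+ cells. In the gamma locus 1 of 3 was lower in CD4+ cells, and in the beta locus 0 of 3. The immunoglobulin heavy chain locus had 2 of 37 lower in CD11b+ cells and the kappa locus 0 of 19. Over all paired regions 1.27% were lower in CD4+ and 4.22% in CD11b+ cells, and these loci hold few pairs. These loci were looked up after the alpha locus region was seen. Rearrangement removes DNA between the joined segments in T cells, so that CD4+ levels there describe the molecules that remain.

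On the CD11b+ side the promoter of *Igsf6*, a gene of monocytes and dendritic cells, came first, with 80.8% in CD4+ and 32.2% in CD11b+ cells (chr7:121074254-121074890). It was at 52.0% and 6.47% in R878H/+ mice. Introns of *Dock10*, a guanine exchange factor, and *Rnf43*, a ubiquitin ligase, followed with 72.9% against 26.5% and 83.9% against 38.1%. A region at a start of *Ankrd13a* had 67.1% and 21.8%. The others of the 10 lay at or nearest to *Myl10*, *Sdcbp*, *Ankrd44*, *Susd1*, *Ten1* and *Cux1*, with differences of 41.1 to 44.2 points. All 10 had the same sign in R878H/+ mice.

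Short motifs of lineage factors were counted in the central 300 bases of each region, on both strands. The PU.1 core GAGGAAG was present in 19.9% of regions lower in CD11b+ cells and 13.2% of those lower in CD4+ cells, against 12.5% of all paired regions. The C/EBP letters TTGCNNAA were in 20.4%, 10.3% and 13.2% respectively. Both are motifs of factors that define myeloid cells, and both were more frequent on the CD11b+ side. On the CD4+ side the RUNX letters TGTGGTT were in 10.8% of regions, against 8.19% on the CD11b+ side and 7.46% of all. The E-box CAGGTG, bound by E proteins of lymphocytes, was in 25.7%, 17.2% and 19.9% in the same order.

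The remaining motifs were counted in the same way. The TCF/LEF letters ATCAAAG were in 4.99% of regions lower in CD4+ cells, 3.67% of those lower in CD11b+ cells and 4.85% of all. The letters AGATAA, read by factors such as *Gata3*, were in 16.2%, 16.3% and 17.3%, and those of AP-1, TGANTCA, in 10.5%, 11.1% and 10.2%. The ETS letters CCGGAAG were in 2.49%, 2.37% and 1.71%, more frequent on both sides than in all regions. They hold a CpG, and called regions had more CpGs per 100 bases (medians 1.44 and 1.58, against 1.34). The part of this in the shares was not tested. Called regions had a median GC content of 47.6% (lower in CD4+) and 47.4% (lower in CD11b+), against 45.8% for all, which changes how often letters occur. In the sequences printed above, the *Gata3* window holds the PU.1 core, the *Zap70* and *Cxcr2* windows the C/EBP letters, and the *Ctsg* window the RUNX letters and the E-box. A match of letters is not evidence of binding.

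**Figure D5:**
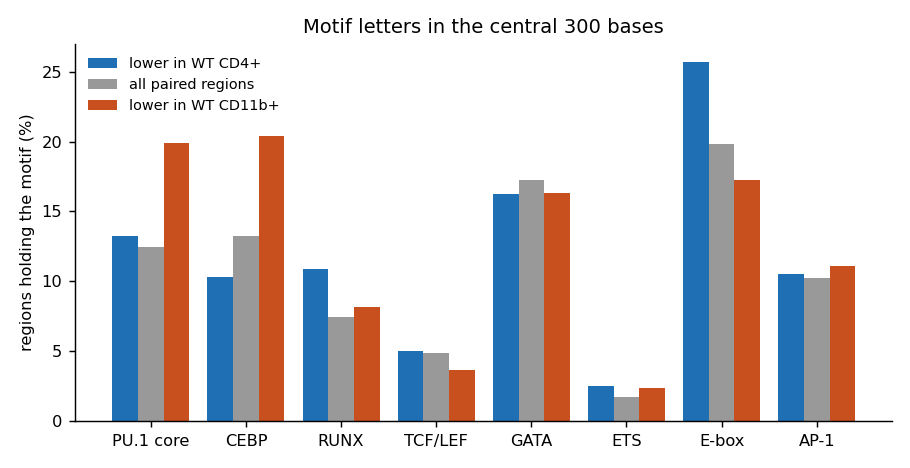
Share of regions (y axis, %) whose central 300 bases hold the letters of 8 motifs (x axis), for regions lower in WT CD4+ cells (blue), all paired regions (grey) and regions lower in WT CD11b+ cells (orange). The orange bars are the highest for the PU.1 core (19.9%) and CEBP (20.4%), and the blue ones for RUNX (10.8%) and the E-box (25.7%).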

How the data were processed

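WGBS had been performed on splenic CD4+ and CD11b+ cells of *Dnmt3a*+/+ and *Dnmt3a* R878H/+ mice, 4 per group. The authors mapped reads to mm10 with BISCUIT and divided the genome into regions with metilene, comparing the genotypes within each cell type. The deposited tables, without headers, give per region the mean methylation of each genotype in percent. The first mean was read as WT, from the order of the comparison and the study's density plots. The columns of the authors' own comparison (q-value, mean difference and p-values) were not used. Read depth is unknown, and 0 columns hold values of single samples.

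The number of CpGs in the tables counts cytosines on single strands, since it exceeded the CpG dinucleotides of the reference in 95.9% (CD4+) and 92.2% (CD11b+) of regions. Each mean, multiplied by that number and by 4, was whole, within the rounding of the deposited means to 3 decimals, in 100.0% of the regions where that rounding left it decidable, as for an unweighted mean over cytosines and mice of whole percents. A cytosine with few reads therefore counted as much as one with many. Paired regions had a median shared length of 450 bases, and at least 10 cytosines in each table.

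Each region kept the partner with the best overlap and was used once. Coordinates are those of mm10, counted from 1, over the shared part of a pair. Genes came from GENCODE release M21, and classes were assigned in the order promoter, exon, intron, intergenic. Gene lists took regions in a gene or within 5000 bases of it. The pairing was tested on simulated regions. Analyses used python 3.11.15, numpy 2.4.6, pandas 2.3.3 and pysam 0.24.0, and figures matplotlib 3.10.9.

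The comparison, gene lists and motifs were chosen with earlier results of these data known. Genes were named by rule: 6 lineage markers, up to 6 genes per list with the largest difference past 20 points and more than 10 cytosines in both tables, the 10 largest differences in each direction among pairs overlapping by at least 80%, the genes with most called regions and the 3 highest and lowest bins. *Cd3d*, *Cd3g*, *Satb1*, *Lck*, *Tcf7*, *Csf3r*, *Lyz1*, *Lyz2*, *Padi4*, *S100a8*, *S100a9*, *Foxp1*, the genes of the clusters and the antigen-receptor loci were named in addition, after their values were seen. Alternatives were stricter overlaps, more cytosines, other differences, the X chromosome (1095 pairs, otherwise left out), weighting, centring, wider promoters and other ways to give regions to genes. Motifs outside promoters were counted as an alternative chosen after seeing the data. For 2 of the genes the rules select, the result is not reported here.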

Additional observations from a re-analysis of the deposited data

How the results depend on the processing

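No paired analysis was possible because the tables hold no value per mouse and the results come from no test, and for the same reason no mouse could be left out in turn. The median difference stayed positive under every alternative, between 1.30 and 1.40 points for stricter overlap, identical boundaries or more than 10 cytosines, and rose to 4.45 points among the 1636 pairs with more than 20 cytosines. The counts of regions lower in CD4+ and in CD11b+ cells were 351 and 1852 with an overlap of at least 80%, 38 and 325 with identical boundaries, 372 and 1740 with more than 10 cytosines, and 15 and 155 with more than 20. Past 10 points they were 6129 and 18218, and past 30 points 551 and 1401. Regions lower in CD11b+ cells were the more frequent in all of these. Adding the X chromosome or subtracting the median moved neither count by 1.5 times, to 1730 and 5739 or to 1986 and 4888. Class medians moved by less than 1.5 times with wider promoters or more cytosines. The share of the same sign in R878H/+ mice was 97.0% (CD4+) and 97.5% (CD11b+) past 10 points, and 99.6% and 99.9% past 30 points.

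Shares of gene lists were set beside the 95% binomial interval of each share, which treats regions as independent, and 28 of 78 left it. Regions are not independent, and each set compared was drawn from the list's own regions. The count is therefore descriptive and tests nothing. Within 1000 bases of a start, where lists hold few regions, the shares lower in CD4+ cells were 16.7% of 24 regions for T-cell factors, 26.1% of 23 for T-cell receptor genes, 15.4% of 13 for methylation enzymes, 4.35% of 46 for imprinted genes and 0 for T-cell surface, myeloid factor, granule, B-cell, NK and CD8, and dendritic-cell genes. There the shares lower in CD11b+ cells were 29.6% of 27 for myeloid surface genes, 16.7% of 12 for B-cell genes and 0 for T-cell surface, NK and CD8, dendritic-cell, erythroid and imprinted genes. With at least 80% overlap the shares lower in CD4+ cells were 2.68% for T-cell factors and 0 for myeloid surface, B-cell, NK and CD8 genes and methylation enzymes, and those lower in CD11b+ cells 3.13% for granule genes and 0 for NK and CD8, erythroid and methylation enzyme genes. In gene bodies alone, 0 regions of granule genes were lower in CD4+ cells and 0 of NK and CD8 genes in CD11b+ cells. Outside promoters, all 16 motif shares stayed within their intervals. Promoters were 18.3% of regions lower in CD4+ and 14.2% of those lower in CD11b+ cells, so these shares had little room to move. What limits these values is that boundaries differ between the tables and that depth and the spread between mice are unknown. The cause of each move was not tested.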
